A study of Mus musculus with 12 samples.

Results

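Myelin and oligodendrocyte differentiation genes were followed in mouse oligodendrocyte progenitor cells (OPCs) exposed to 3 quaternary ammonium compounds. The group holds 9 genes chosen by name, Mbp, Cnp, Fyn, Myrf, Bcas1, Tcf7l2, Ugt8a, Cldn11 and Sirt2, of 35385 gene symbols with values in every library. Of the 9, 6 passed the filter of at least 1 TPM (a transcript level scaled by length and by the sum of the library) in at least 3 libraries, as did 12009 genes in all. Myrf, Ugt8a and Cldn11 did not pass it. Mbp passed, but its mean was under 5 TPM in all 4 groups, so that 4 of the 9 genes, Mbp, Myrf, Ugt8a and Cldn11, were too low to judge.

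The OPCs were derived from mouse pluripotent stem cells and plated in medium that permits differentiation. After 1 h of attachment they were kept for 4 h with dimethyl sulfoxide (vehicle) or with 1 of the compounds. These were cetylpyridinium chloride (CPC), which joins a hexadecyl chain to a pyridinium ring, C12-C14-alkyl(ethylbenzyl)dimethylammonium chloride (AEBDAC, an ethylbenzyl ring and an alkyl chain on the ammonium nitrogen) or methyltrioctylammonium chloride (MTOAC, octyl chains and no ring). Each compound was given at its own IC75, the concentration that inhibits by 75%, so the doses may differ, and no label states the concentrations. There were 3 libraries a group, with the numbers 1, 2 and 3 in their titles, and the labels do not say that they came from separate cultures. The p-values therefore measure the spread between libraries only, which may be technical.

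OPCs leave the cell cycle, pass through a premyelinating stage and then make the myelin sheath, a multilayered membrane rich in galactolipids, cholesterol and a small set of abundant proteins. The step is driven by transcription factors such as Olig2, Sox10, Myrf and Tcf7l2 and by kinases such as Fyn, and it is held back by Notch, BMP and Wnt effectors. Transcripts of Mbp, Mog and Mobp are the classical signs that a cell has become an oligodendrocyte.

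Cnp was the only member with a called change, with MTOAC and over the 3 compounds together. Of all tested genes, 6.54% and 7.66% were called there. Cnp was not called with CPC or AEBDAC alone in the same fit, and 5 of 16 alternative settings lost the MTOAC call. Same-numbered libraries of CPC and vehicle deviated together. With the number as a block in limma, Cnp was called with CPC (adjusted p = 0.0304), as were 1.53% of all genes. Cnp was lower in all 9 compound libraries than in any vehicle library, by about the same proportion with each compound. Of all tested genes, 11.4% were separated in this way in either direction. Fyn also lay below the vehicle range in all 9 compound libraries, but by about as much as the median gene, and it was not called. Bcas1 varied with the number of the library more than with the compound, as did the few TPM of Mbp, and Tcf7l2 and Sirt2 overlapped between groups and were not called.

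The promoters of Cnp, the member that fell, and of Tcf7l2, a member that was not called, are shown first. Both are RefSeq windows on GRCm38.p6, printed 5′ to 3′ on the plus strand up to the last base before the annotated gene. Capitals mark the SOX core ACAAAG and the E-box CANNTG, searched on both strands, and these motifs share no letters in the Cnp window.
Cnp chr11:100574689-100574903: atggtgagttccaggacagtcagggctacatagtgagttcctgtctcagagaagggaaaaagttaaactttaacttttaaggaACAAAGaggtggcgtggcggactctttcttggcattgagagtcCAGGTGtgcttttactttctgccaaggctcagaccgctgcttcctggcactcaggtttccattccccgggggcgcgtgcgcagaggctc
Tcf7l2 chr19:55741560-55741819: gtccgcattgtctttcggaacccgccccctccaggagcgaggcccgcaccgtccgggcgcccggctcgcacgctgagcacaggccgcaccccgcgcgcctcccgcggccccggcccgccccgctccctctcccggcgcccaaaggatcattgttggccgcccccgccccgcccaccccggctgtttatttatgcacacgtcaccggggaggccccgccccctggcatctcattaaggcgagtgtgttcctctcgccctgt
In the full windows of 300 bases, 250 before and 50 after the start, Cnp held 1 SOX core and 1 E-box and this start of Tcf7l2 held neither. A window at a later start of Tcf7l2, chr19:55895071-55895370, held 1 SOX core and no E-box, so the motif does not separate the genes. RefSeq gave windows for 6 of the 9 genes, 7 windows in all, of which 2 held a SOX core and 3 an E-box. Of 32851 promoter windows of that length, 18.7% held the SOX core and 72.3% the E-box. A match describes the letters of the window and was not tested for binding.

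**Figure D1:**
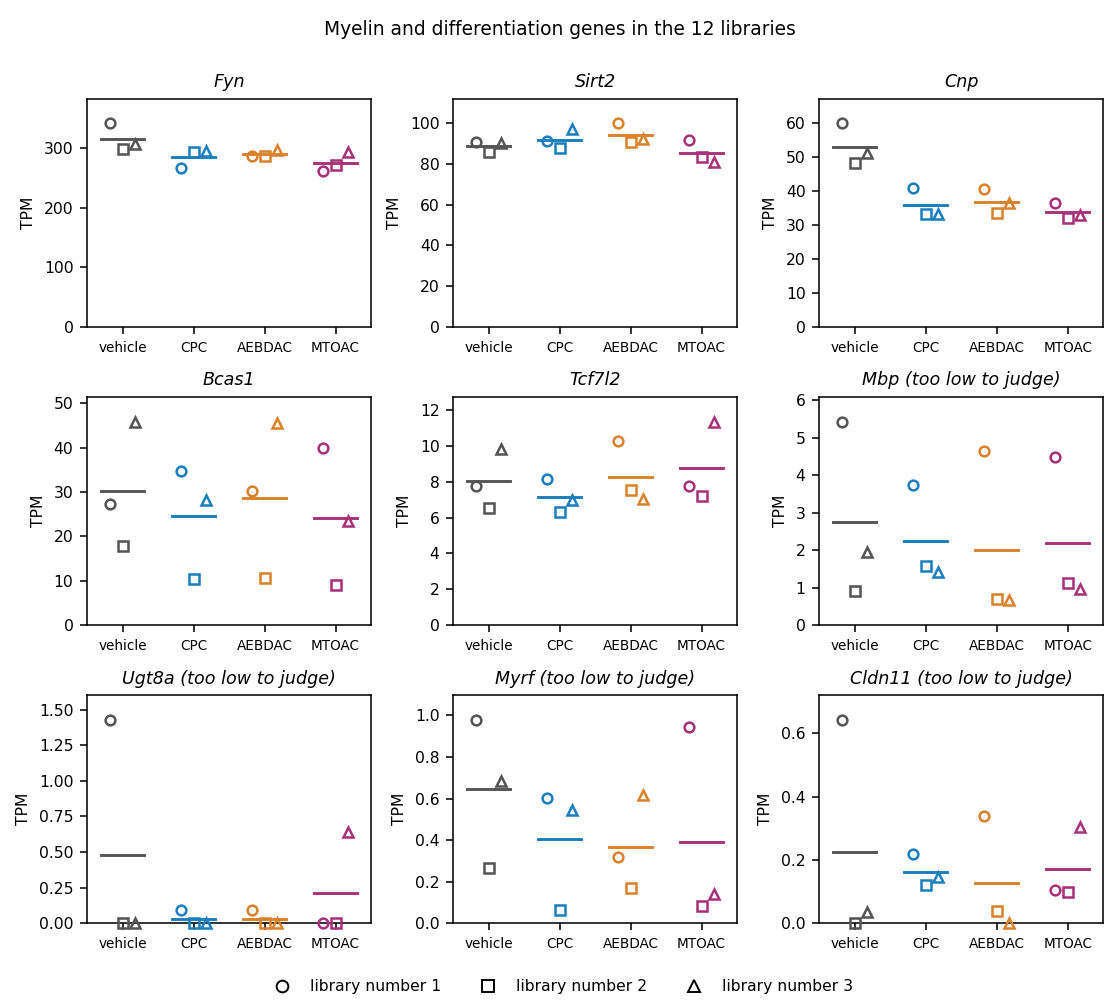
Level in TPM of each of the 9 genes in every library, by group, with the marker showing the library number and the bar the mean of 3 libraries. Cnp lies between 48.1 and 59.8 TPM in vehicle and between 32.1 and 40.9 in the compound groups, while library 2 is the lowest for Bcas1 in all 4 groups.

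In vehicle, Fyn had the highest level of the 9, 316 ± 22.5 TPM (SD, n = 3). Sirt2 followed at 88.8 ± 2.59, Cnp at 53.0 ± 6.10, Bcas1 at 30.4 ± 14.3, Tcf7l2 at 8.05 ± 1.66 and Mbp at 2.76 ± 2.37 TPM. No neighbours in this order from Fyn down to Mbp overlapped between vehicle libraries. With each compound Cnp and Bcas1 did overlap. With MTOAC Bcas1 and Tcf7l2 did too, since the library of lowest Bcas1 had 9.06 TPM and the library of highest Tcf7l2 had 11.4. Myrf, Ugt8a and Cldn11 averaged 0.644, 0.476 and 0.227 TPM in vehicle, with ranges that overlapped one another. By median over the 12 libraries, Fyn stood above 97.7% of the tested genes, Sirt2 above 91.9%, Cnp above 79.4%, Bcas1 above 73.9% and Tcf7l2 above 42.3%.

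Markers of the labelled cell type were present. Olig2, the lineage factor of oligodendrocytes, lay at 459 ± 96.3 TPM in vehicle (SD, n = 3), and the progenitor proteoglycan gene Cspg4 lay at 31.7 ± 10.9. Pdgfra, the growth factor receptor of progenitors, lay at 31.4 ± 3.62 TPM. Of 22 OPC markers 20 were tested, and none was at 0 in all libraries. Markers of mature myelin were nearly absent. Mog was listed at 0 in every library, and Mag and Mobp stayed under 1 TPM, as did 13 of the 28 other myelin sheath genes in all libraries. Of other cell types, microglia and myeloid markers summed to at most 3.39 TPM. Markers of astrocytes and neurons were present, and in vehicle the astrocyte list summed to 410 to 454 TPM and the neuron list to 456 to 504. Of the 12 astrocyte markers 11 were tested, from Aldoc at 201 ± 34.0 TPM and Sox9 at 94.7 ± 27.7 in vehicle (SD, n = 3) down to Gfap and Aqp4, which did not exceed 1.41 and 1.04 TPM in any library. Aldoc and Sox9 are not confined to astrocytes. In vehicle library 1 the mitochondrially encoded transcripts summed to 86422 TPM, against 147539 to 183001 in the other 11 libraries, and mt-Nd3 was listed at 0. Called values of the members, and counts and lost calls of the list genes, are given without it too. Actb was listed at 31.6 to 76.2 TPM, a low level for a gene that all cells use, so absolute levels are those of the deposited tables only.

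The values below are differences on the log2(TPM + 1) scale, which understates the change of low genes. They come from 1 limma fit of all 12 libraries, with p-values adjusted by Benjamini and Hochberg over the 12009 tested genes and calls at an adjusted p under 0.05. The comparisons against vehicle share the same 3 vehicle libraries. The median gene was lower with each compound, by -0.17 with CPC, -0.16 with AEBDAC and -0.22 with MTOAC, so that 71.0%, 66.9% and 71.7% of genes had a negative value. In bulk RNA, fewer cells of a type and less RNA per cell cannot be told apart.

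Cnp encodes the cyclic nucleotide phosphodiesterase of non-compact myelin, a protein made early in oligodendrocyte differentiation. The gene lies at chr11:100574904-100591729 (mm10, plus strand) and has 1 protein-coding transcript among 4. The vehicle libraries 1, 2 and 3 held 59.8, 48.1 and 51.0 TPM. The CPC libraries held 40.9, 33.3 and 33.3 TPM. The AEBDAC libraries held 40.5, 33.5 and 36.6 TPM, and the MTOAC libraries 36.4, 32.1 and 32.8. No compound library reached the lowest vehicle library, and library 1 was the highest in each of the 4 groups. Against the vehicle library of the same number, the level was 0.652 to 0.693 of vehicle with CPC, 0.677 to 0.716 with AEBDAC and 0.608 to 0.667 with MTOAC. The group means lay 32.4%, 30.5% and 36.3% below vehicle.

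With MTOAC Cnp fell by 0.63 log2 (SE 0.13, adjusted p = 0.0232), and over the 3 compounds together by 0.56 (SE 0.11, adjusted p = 0.0150). With CPC the difference was -0.55 (SE 0.13, adjusted p = 0.154), and with AEBDAC -0.51 (SE 0.13, adjusted p = 0.0793), neither of them called. Same-numbered libraries of CPC and vehicle deviated together, and with the number as a replicate block the CPC difference was called (adjusted p = 0.0304). Relative to the median gene, Cnp was lower by -0.38, -0.35 and -0.41 with CPC, AEBDAC and MTOAC, and only 12.6%, 19.1% and 16.8% of genes had a lower value. The call with MTOAC was lost without vehicle library 1 (-0.54, adjusted p = 0.0624), vehicle library 3 (-0.65, adjusted p = 0.0531) or MTOAC library 2 (-0.60, adjusted p = 0.0816), and with quantile normalization (-0.44, adjusted p = 0.0690). It was also lost when only the 6 libraries compared were fitted (adjusted p = 0.120). The call over the 3 compounds was lost without vehicle library 1 (-0.48, adjusted p = 0.0677). The sign was negative in all of these.

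As background, 0.0666% of the tested genes were called with CPC, 1.27% with AEBDAC, 6.54% with MTOAC and 7.66% over the 3 compounds together. The members called were 0, 0, 1 and 1 of 6. Leaving out 1 library lowered the background counts, from 8 genes to 1 to 5 with CPC, from 153 to 9 to 104 with AEBDAC and from 785 to 149 to 573 with MTOAC, lowest without CPC library 3, AEBDAC library 2 and MTOAC library 2. Over the 3 compounds it moved 920 genes to 169 to 1068, lowest without vehicle library 1. The split of all called genes depended on scaling. With MTOAC 95 were higher and 690 lower, and after quantile normalization 213 and 217. With AEBDAC it was 47 and 106, and then 96 and 86, and with CPC 4 and 4, and then 12 and 4. With the replicate block, 1.53% of genes and 1 of 6 members were called with CPC. Groups that do not overlap were common. CPC and vehicle did not overlap in 20.6% of genes, AEBDAC and vehicle in 24.9%, MTOAC and vehicle in 26.4%, and the 9 compound libraries and the vehicle libraries in 11.4%. Of the 6 tested members, Cnp and Fyn met the last of these.

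Dnajc7, which encodes a co-chaperone, lies on the opposite strand and covers 8912 of the 16826 bases annotated to Cnp. The exons of their protein-coding transcripts share 0 bases. The library kit is not described as marking strand, so strand cannot separate reads from the shared stretch. Dnajc7 averaged 28.6 ± 6.22, 21.4 ± 1.83, 19.9 ± 2.14 and 18.7 ± 12.4 TPM in vehicle, CPC, AEBDAC and MTOAC (SD, n = 3). It was not called in any of the 3 comparisons.

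No member was called between compounds. Of all 12009 genes, 0% were called between AEBDAC and CPC, between MTOAC and CPC, or between MTOAC and AEBDAC with limma at an adjusted p under 0.05, and 211, 449 and 307 genes had an unadjusted p under 0.05. Cnp differed by 0.04 between AEBDAC and CPC (95% interval -0.25 to 0.33), by -0.08 between MTOAC and CPC (-0.37 to 0.21) and by -0.12 between MTOAC and AEBDAC (-0.41 to 0.17). Compounds with a pyridinium ring, with an ethylbenzyl ring and with no ring thus gave Cnp values that could not be separated, at doses set by the effect of each. Same-numbered libraries of CPC and AEBDAC, and of AEBDAC and MTOAC, also deviated together. With the replicate block the Cnp intervals were -0.14 to 0.23 between AEBDAC and CPC and -0.31 to 0.065 between MTOAC and AEBDAC. In both, 0 genes were called. None of these intervals shows that the compounds act alike.

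**Figure D2:**
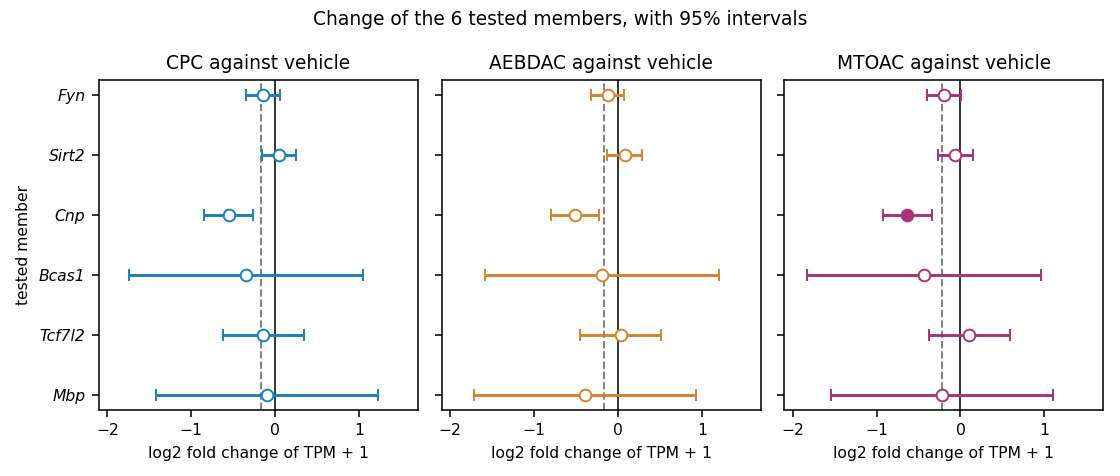
Difference from vehicle on the log2(TPM + 1) scale for the 6 tested members with each compound, with 95% intervals, a solid line at 0 and a dashed line at the median gene (-0.17, -0.16 and -0.22). Only the filled point, Cnp with MTOAC at -0.63, passed the test, and the widest intervals are those of Bcas1 and Mbp.

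Mbp encodes myelin basic protein, which compacts the sheath, and the gene also gives golli transcripts that progenitors can express, so that a value per gene does not separate them. The libraries numbered 1 held 5.43, 3.73, 4.64 and 4.49 TPM in vehicle, CPC, AEBDAC and MTOAC. Those numbered 2 held 0.899, 1.57, 0.687 and 1.13 TPM, and those numbered 3 held 1.96, 1.43, 0.676 and 0.952. Library 1 was the highest in 4 of 4 groups, and the groups overlapped throughout. The differences from vehicle were -0.10 with CPC, -0.39 with AEBDAC and -0.22 with MTOAC (SE 0.60 each), with 95% intervals as wide as -1.71 to 0.93 for AEBDAC. Their sign turned positive without vehicle library 1 (0.38, 0.09 and 0.26), so no direction can be read from Mbp.

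Cldn11 encodes the tight junction protein of the myelin sheath, and it lay between 0 and 0.643 TPM over all libraries. Ugt8a, the enzyme that makes galactocerebroside, was listed at 0 in 8 of 12 libraries and reached 1.43 TPM in vehicle library 1 and 0.642 in MTOAC library 3. Neither gene reached 1 TPM in 3 libraries. When the filter was dropped, Cldn11, Ugt8a and Myrf had adjusted p-values of 0.620 to 1 in the limma comparisons of the 3 compounds with vehicle.

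Bcas1 marks premyelinating oligodendrocytes, the short-lived stage between progenitor and myelinating cell. The gene lies at chr2:170346991-170427845 (mm10, minus strand) and overlaps the antisense genes Bcas1os1 and Bcas1os2. The vehicle libraries 1, 2 and 3 held 27.3, 17.9 and 45.9 TPM. The CPC libraries held 34.7, 10.5 and 28.3 TPM, the AEBDAC libraries 30.2, 10.6 and 45.5, and the MTOAC libraries 39.9, 9.06 and 23.4. Library 2 was the lowest in all 4 groups, and every compound group overlapped vehicle. The differences from vehicle were -0.35, -0.19 and -0.44 with CPC, AEBDAC and MTOAC (SE 0.63 each, adjusted p = 0.848, 0.905 and 0.727). The 95% interval for MTOAC ran from -1.83 to 0.95. Changes of that size in either direction were not detectable at this spread.

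The dependence of Bcas1 and Mbp on the library number was tested after the values had been seen, with an F test of the number in the limma fit with the replicate block. Of all genes, 8.06% were called by this test, and of the 6 members Mbp (adjusted p = 0.00515) and Bcas1 (adjusted p = 0.0104) were. The number took 88.2% of the variation of Mbp and 81.1% of that of Bcas1, and the group 4.46% and 4.82%. In Cnp the group took 82.2% and the number 16.5% (adjusted p = 0.0965). Averaged over groups, Mbp lay at 4.57 ± 0.694 TPM in libraries numbered 1 (SD, n = 4), against 1.07 ± 0.379 and 1.25 ± 0.564 in those numbered 2 and 3. Bcas1 lay at 11.99 ± 3.97 TPM in libraries numbered 2, against 33.1 ± 5.50 and 35.8 ± 11.6 in those numbered 1 and 3. The 2 genes therefore did not follow the same order of libraries. The values of Mbp are those of a gene too low to judge, so its test describes these libraries only. The call for Mbp held without each of the 12 libraries in turn, and that for Bcas1 without 9 of the 12 (highest adjusted p = 0.0547).

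Of the 14 tested genes among the other myelin sheath genes 5 were called by library number, against 8.06% of all tested genes. Of the 30 tested factors that promote differentiation 6 were. They did not share 1 order of libraries. Opalin, a membrane protein of oligodendrocytes, was lowest in library 2 of all 4 groups, as were Aspa and, among the factors, Sox10, Sox8 and Nfix. Sox9 was highest in library 2 of all 4 groups, and Nkx6-2 was highest in library 1 of all 4 and lowest in library 3 of 3. Sox10 ranged from 7.15 to 19.6 TPM in libraries numbered 2 and from 21.9 to 61.0 in the others. Tubb4a was lowest in library 3 of all groups, and Cd9 was highest there. Over the 12 libraries, the log2 levels of Bcas1 correlated with those of Sox10 (r = 0.89) and Opalin (r = 0.86), as a description of libraries that share numbers and groups.

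Markers of OPCs and of other cells also moved with the number, beside 8.06% of all tested genes. Of 20 tested OPC markers 5 were called, Cdo1, Cspg4, Ednrb, Gpr17 and Xylt1. Sox9, named below as an astrocyte marker, is counted among the factors above too. Of 11 tested astrocyte markers 3 were called, Gja1, S100b and Sox9, and the list summed to 372 to 454 TPM in libraries numbered 1, 360 to 410 in those numbered 2 and 335 to 416 in those numbered 3. Of 11 neuron markers 3 were called, Elavl3, Nefm and Tubb3. Pluripotent cell markers summed to 24.2 to 34.1, 8.42 to 13.8 and 34.2 to 38.9 TPM, and 1 of 3 tested was called, Klf4. Mesenchymal and vascular markers summed to 43.9 to 59.7, 46.2 to 66.7 and 71.0 to 118 TPM, and Acta2 and Tagln were called. Nanog and 5 other pluripotent markers, and Col1a1 and 10 other mesenchymal or vascular ones, stayed under 1 TPM in all libraries. The part of other cells in the levels of Bcas1 and Mbp was not tested.

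**Figure D3:**
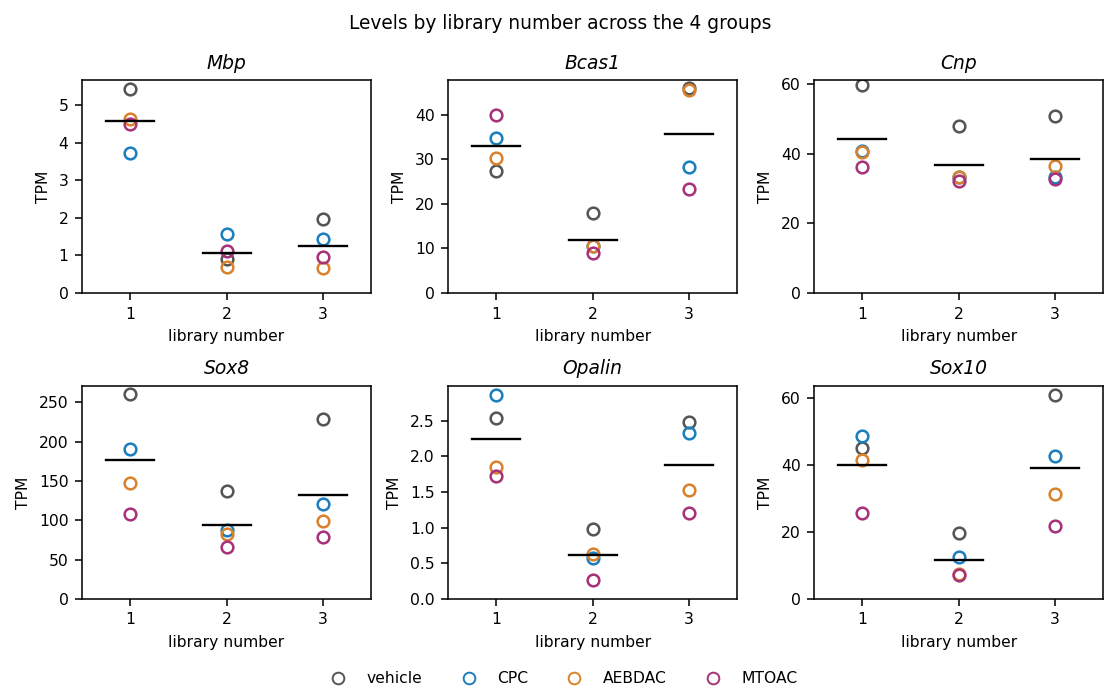
Level in TPM by library number for Mbp, Bcas1, Cnp, Sox8, Opalin and Sox10, with 1 point per group and a bar at the mean of 4 libraries. Bcas1, Sox8, Opalin and Sox10 are lowest in library 2 of every group and Mbp is highest in library 1, while in Cnp the vehicle point is the highest at each number.

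Fyn encodes a Src family kinase that acts downstream of integrins and contactin in oligodendrocytes and promotes their differentiation and the local translation of Mbp. The gene lies at chr10:39368855-39565381 (mm10, plus strand). The vehicle libraries 1, 2 and 3 held 342, 299 and 308 TPM. The CPC libraries held 268, 294 and 296 TPM, the AEBDAC libraries 288, 286 and 297, and the MTOAC libraries 261, 273 and 294. All 9 compound libraries lay below the lowest vehicle library, the nearest at 297 TPM against 299. The differences were -0.14, -0.12 and -0.20 with CPC, AEBDAC and MTOAC (SE 0.09 each, adjusted p = 0.514, 0.498 and 0.214). Relative to the median gene they were 0.02, 0.04 and 0.02. Fyn thus differed from vehicle by about as much as the median gene.

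Of 30 genes of Fyn signalling, all tested, 1 that was expressed in vehicle was called with MTOAC and 0 with the other compounds. The shares of all genes called were 6.54% with MTOAC, 1.27% with AEBDAC and 0.0666% with CPC. Csk, the kinase that inhibits Src family kinases, averaged 77.3 ± 27.5 TPM in vehicle and 39.6 ± 4.81 with MTOAC (SD, n = 3) and fell by 0.90 log2 (SE 0.22, adjusted p = 0.0359). Its vehicle mean was carried by library 1, at 109 TPM against 56.9 and 66.3, and without that library the difference was -0.63 (adjusted p = 0.0700). Vav3, a guanine nucleotide exchange factor, was under 1 TPM in every vehicle library and passed the filter only through the compound libraries. It held 0.351 ± 0.374 TPM in vehicle and 4.996 ± 3.22 with MTOAC, and its call there (2.04, with 0.85 to 3.76 under the alternatives) is not counted as support. The list had a median of -0.19 with CPC, -0.09 with AEBDAC and -0.19 with MTOAC, beside -0.17, -0.16 and -0.22 over all genes.

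Sirt2 encodes a deacetylase enriched in oligodendrocytes and carried into the myelin sheath. The gene lies at chr7:28766735-28788661 (mm10, plus strand). The vehicle libraries 1, 2 and 3 held 90.5, 85.8 and 90.1 TPM. The CPC libraries held 90.9, 87.7 and 96.8 TPM, the AEBDAC libraries 99.7, 90.4 and 91.9, and the MTOAC libraries 91.5, 83.3 and 81.0. All groups overlapped. The differences were 0.05, 0.08 and -0.06 (SE 0.09 each), and the 95% intervals reached from -0.16 to 0.25 for CPC, from -0.12 to 0.28 for AEBDAC and from -0.26 to 0.14 for MTOAC. Relative to the median gene Sirt2 was higher by 0.21, 0.24 and 0.16. Nfkbib overlaps Sirt2 on the opposite strand over 778 bases, 42 of them exonic in both, and it was listed at 0 in 10 of 12 libraries.

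Myrf encodes the membrane-bound factor that switches on myelin genes at the end of differentiation. It lay between 0.0651 and 0.980 TPM and did not reach 1 TPM in any library. Each of the 9 compound libraries was below the vehicle library of the same number, at levels where such a count cannot be read as a change.

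Tcf7l2 encodes the Wnt effector that, with repressor or activator partners, times the onset of differentiation. The gene lies at chr19:55741820-55933654 (mm10, plus strand) and has 22 annotated transcripts, 12 of them coding. The vehicle libraries 1, 2 and 3 held 7.77, 6.54 and 9.83 TPM. The CPC libraries held 8.15, 6.30 and 6.97 TPM, the AEBDAC libraries 10.3, 7.54 and 7.02, and the MTOAC libraries 7.76, 7.21 and 11.4. All groups overlapped. The differences were -0.14, 0.04 and 0.10 with CPC, AEBDAC and MTOAC (SE 0.22 each, adjusted p = 0.819, 0.954 and 0.820). Of 28 Wnt and Tcf7l2 partners and targets, 21 were tested and 0 were called by limma with any compound. The shares of all genes called were 0.0666%, 1.27% and 6.54% with CPC, AEBDAC and MTOAC. In the list, 1, 2 and 1 genes had an unadjusted p under 0.05 in the same order. The smallest p-values were those of Bcl9, a coactivator of beta-catenin, at -0.82 with MTOAC (SE 0.24, adjusted p = 0.0628), and Tle3, a corepressor, at -0.34 with CPC (SE 0.14, adjusted p = 0.343).

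The genes whose log2 levels were most like those of each member over the 12 libraries were picked from all tested genes by Pearson's r, and the libraries share groups and numbers. For Cnp they were Flywch1 (r = 0.98), Cirbp (0.97) and Fam32a (0.97). For Fyn they were Ctnnd1 (0.94), Ints6l (0.94) and Afg3l2 (0.93). For Bcas1 they were Fam184b (0.96), Pcdha5 (0.94) and Zfp560 (0.93). For Tcf7l2 they were Phka1, P2rx4 and Spa17 (0.84 to 0.87), at means of 1.005, 3.06 and 1.199 TPM, and for Sirt2 Cluap1, Ctdsp1 and Tmem132e (0.85 to 0.91), at means of 1.13, 1.17 and 7.82 TPM.

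Other genes were read from 14 lists of 276 genes, of which 198 were tested. Of these lists 8 hold genes of the lineage and its pathways, with 206 genes and 169 tested, and 6 hold markers of other cell types, with 70 further genes and 29 tested. Of the 169, 1 was called with CPC, lower (0.592%, against 0.0666% of all genes). With AEBDAC 5 were called, all lower (2.96%, against 1.27%). With MTOAC 19 were called, 17 lower and 2 higher, Carm1 and Vav3 (11.2%, against 6.54%). Vav3 passed the filter only through the compound libraries, so its part in the 19 and the 11.2% is not support. Of the 29, 0 were called by limma with CPC or AEBDAC, where 2 neuron markers each had an unadjusted p under 0.05, and 1 was called with MTOAC. With the replicate block 8 of the 198 were called with CPC. No test compares these shares with the background, since the lists were chosen with earlier results of these data known.

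Of all tested genes, 0.0666% were called with CPC, 1.27% with AEBDAC and 6.54% with MTOAC. Among the other myelin sheath genes, 1 of 14 tested was called with AEBDAC and with MTOAC, and none with CPC. That gene was Omg, the oligodendrocyte myelin glycoprotein, at 31.7 ± 1.96 TPM in vehicle, 17.2 ± 1.74 with CPC, 12.03 ± 0.852 with AEBDAC and 10.9 ± 2.40 with MTOAC (SD, n = 3). All 9 compound libraries, at most 18.7 TPM, lay below the lowest vehicle library at 29.5. Such a separation, in either direction, was seen in 11.4% of all tested genes. Omg fell by 1.33 log2 with AEBDAC (adjusted p = 0.00546) and by 1.47 with MTOAC (adjusted p = 0.00228). With CPC the difference was -0.84, called only with the replicate block (adjusted p = 0.0362). The list had medians of -0.19, -0.44 and -0.31.

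All 20 genes of myelin lipid synthesis were tested. The shares of all genes called were 0.0666%, 1.27% and 6.54% with CPC, AEBDAC and MTOAC. Sptlc1, a subunit of the enzyme that starts sphingolipid synthesis, fell from 27.9 ± 6.03 TPM to 15.0 ± 2.14 with AEBDAC (-0.84, adjusted p = 0.0479) and 12.6 ± 1.46 with MTOAC (-1.07, adjusted p = 0.0119). With MTOAC Fasn, the fatty acid synthase, fell by 0.67 (adjusted p = 0.0419), and 17 of the 20 did not pass. With CPC 0 were called without the block and Sptlc1 with it (adjusted p = 0.0352). The list had medians of -0.21, -0.16 and -0.23 with CPC, AEBDAC and MTOAC, near those of all genes.

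Of 20 premyelinating and committed progenitor genes, 13 were tested, and 3 fell with MTOAC, where 6.54% of all genes were called. Gpr17, a receptor that marks committed progenitors, lay at 59.0 ± 7.19 TPM in vehicle and 13.6 ± 2.79 with MTOAC (-2.05, adjusted p = 0.00745). Mycl, a MYC family factor, lay at 34.4 ± 5.35 TPM in vehicle, 18.3 ± 1.49 with AEBDAC (-0.87, adjusted p = 0.0320) and 15.3 ± 2.35 with MTOAC (-1.12, adjusted p = 0.00647). Lims2, an adaptor of integrin signalling, varied from 16.1 to 65.2 TPM between vehicle libraries (-2.13 with MTOAC, adjusted p = 0.0472). With CPC 0 of the 13 were called without the block, and Gpr17 and Mycl were called with it (adjusted p = 0.0450 and 0.0334).

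Of 33 transcription and chromatin factors that promote differentiation, 30 were tested, and with MTOAC 5 fell and 1 rose. The share of all genes called with MTOAC was 6.54%. Olig1, the basic helix-loop-helix factor of the lineage, lay at 1194 ± 154 TPM in vehicle and 531 ± 79.0 with MTOAC (-1.17, adjusted p = 0.00647), and it fell by 0.82 with AEBDAC (adjusted p = 0.0404). Myt1, a zinc finger factor, fell by 1.94 (adjusted p = 0.0232), Sox8 by 1.28 (adjusted p = 0.0429), the chromatin remodeller Chd7 by 0.59 (adjusted p = 0.0471) and the BAF ATPase Smarca4 by 0.43 (adjusted p = 0.0269), all with MTOAC. Carm1, an arginine methyltransferase, rose from 6.84 ± 0.412 to 14.0 ± 2.56 TPM (0.92, adjusted p = 0.0395). Olig2 differed by -0.46 (adjusted p = 0.156) and Sox10 by -1.19 (SE 0.71, adjusted p = 0.335), neither of them called. With CPC 0 of the 30 were called without the replicate block and Sox8 with it (-0.67, adjusted p = 0.0422). The list had medians of -0.28, -0.21 and -0.36 with CPC, AEBDAC and MTOAC.

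Of 28 inhibitors of differentiation, 24 were tested, and 2 fell with MTOAC, Hes5 by 1.94 (adjusted p = 0.0151) and Id3 by 1.22 (adjusted p = 0.0241). Among all genes 6.54% were called with MTOAC. Hes5 is a Notch target and Id3 a BMP target, and both products act against lineage factors. The list had medians of 0.03, 0.04 and 0.01 with CPC, AEBDAC and MTOAC, beside -0.17, -0.16 and -0.22 over all genes. With the replicate block, CPC calls were Id3 (-0.84, adjusted p = 0.0470) and Egr1 (1.48, adjusted p = 0.0346), the latter higher. Egr1, an early response factor, lay at 3.25 to 5.25 times the vehicle library of the same number with CPC and above it in all 9 compound libraries. It was not called without the block (adjusted p = 0.467 with CPC, 0.274 with AEBDAC and 0.200 with MTOAC).

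**Figure D4:**
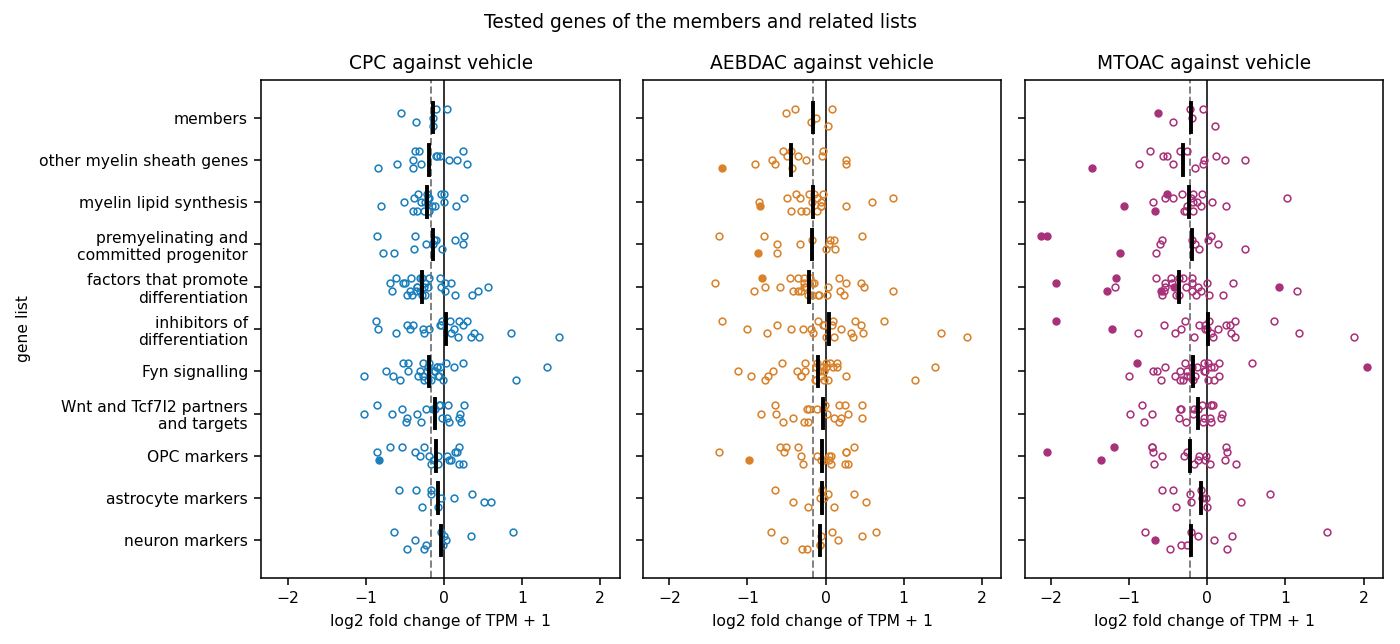
Difference from vehicle on the log2(TPM + 1) scale for each tested gene of the members and of 10 related lists with 5 or more tested genes, by compound. Filled points passed the test, black bars are list medians, the solid line is at 0 and the dashed line at the median gene, and most filled points lie to the left with MTOAC.

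Some markers of cell identity were called beside Cnp as well, where 0.0666%, 1.27% and 6.54% of all genes were called with CPC, AEBDAC and MTOAC. Of 20 tested OPC markers, Dll1, a Notch ligand, fell with each compound, although the CPC call was lost without any 1 of the 6 libraries. It went from 61.0 ± 3.93 TPM in vehicle to 33.9 ± 4.12, 30.4 ± 1.32 and 23.2 ± 1.41 (adjusted p = 0.0331, 0.00546 and 0.000600). Gpr17 and Pdgfra (-1.20, adjusted p = 0.0319) fell with MTOAC, and 17 of the 20 did not pass. The list summed to 1326 to 1385 TPM in vehicle, 1165 to 1274 with CPC, 1249 to 1277 with AEBDAC and 1065 to 1238 with MTOAC. Map2, 1 of 11 tested neuron markers, fell with MTOAC (-0.67, adjusted p = 0.0155), and the neuron list summed to 456 to 504 TPM in vehicle, 353 to 426 with CPC, 337 to 380 with AEBDAC and 291 to 377 with MTOAC. Every compound group lay below vehicle in this sum. Of 11 astrocyte markers 0 were called by limma with any compound, and 0 had an unadjusted p under 0.05. The astrocyte list summed to 410 to 454 TPM in vehicle, 356 to 377 with CPC, 371 to 421 with AEBDAC and 335 to 373 with MTOAC, below vehicle without overlap for CPC and MTOAC. The median neuron marker differed by -0.03, -0.07 and -0.21 with CPC, AEBDAC and MTOAC, beside -0.17, -0.16 and -0.22 for the median gene. The median astrocyte marker differed by -0.08, -0.05 and -0.08, and the median OPC marker by -0.10, -0.04 and -0.22. The neuron and astrocyte medians are each of 11 tested markers, and single markers differed from them. Over the 3 compounds together the neuron markers Map2 and Dcx were called, both lower, and 9 were not, beside 7.66% of all genes called. Map2 and Dcx lay below the vehicle range in all 9 compound libraries, where 11.4% of all genes were separated in either direction. The part of cell composition in the fall of Cnp was not tested.

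With MTOAC the calls of Omg, Sptlc1, Gpr17, Mycl, Olig1, Hes5 and Dll1 held without each of the 6 libraries in turn. Those of Carm1, Chd7 and Pdgfra were lost without any 1 of them, and those of the other list genes were lost without at least 1. With AEBDAC the calls of Omg and Dll1 held without each of the 6 libraries, those of Mycl and Olig1 without 1 of them, and that of Sptlc1 without none. Without vehicle library 1, 9 of the 20 calls with MTOAC, 2 of the 5 with AEBDAC and 0 of the 1 with CPC held. The 20 include Vav3, which is not counted as support and was lost there. Among those lost with MTOAC were Fasn (-0.66, adjusted p = 0.0985), Lims2 (-1.71, adjusted p = 0.140), Myt1 (-1.57, adjusted p = 0.0683) and Sox8 (-1.10, adjusted p = 0.125).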

How the data were processed

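Poly(A) RNA was sequenced in pairs of 150 bp, to a stated minimum depth of 20 M reads, per the series' design text. Per the submitters' processing notes, the tool was Salmon and the build mm10. Its version is not given in the sources used here, nor is the annotation. TPM per gene symbol were deposited by the authors, 1 table per library, with totals of 772637 to 797758 TPM. TPM are relative, so a rise of abundant transcripts lowers all others, and depth is unknown beyond the stated minimum.

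Groups came from the sample titles. Genes with at least 1 TPM in 3 libraries were tested with limma 3.58.1 in R 4.3.3 on log2(TPM + 1), with trend and robust moderation, 4 group means and two-sided p-values adjusted within a comparison. With 3 libraries a side, the smallest p of an exact permutation is 0.1. The members, lists and tests were chosen with earlier results of these data known. A member was called too low to judge when it failed the filter or averaged under 5 TPM in all groups. List genes were named when called with a compound, at most 6 per list by p, or otherwise at most 2 by p, and for each member the 3 most alike genes were named. The script was tested on simulated data. Some genes that meet this rule are not reported here.

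Replicate numbers come from the titles and are not said to mark a shared culture. They were taken to pair libraries where libraries of the same number deviated together from their group means, with a correlation above 0.1 in all 3 pairs. For CPC and vehicle the correlations were 0.34, 0.31 and 0.23, for AEBDAC and vehicle 0.08, 0.25 and 0.03, and for MTOAC and vehicle -0.03, 0.35 and -0.19, so only the first of these comparisons was paired. Between compounds, CPC and AEBDAC (0.28, 0.42 and 0.23) and AEBDAC and MTOAC (0.33, 0.36 and 0.30) were paired. CPC and MTOAC (0.17, 0.40 and 0.09) were not. No pair of libraries was identical. Gene coordinates came from the GENCODE annotation, release M21, whose GRCm38 assembly is that of mm10.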

Additional observations from a re-analysis of the deposited data

How the results depend on the processing

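Of 458 member values under the alternatives, 408 kept direction and side of the threshold, 3 gained a call, 6 lost one and 41 changed sign, none of these a called value. Of 415 values of named list genes, 272 kept their call, 143 lost it and 0 changed sign. Depth is unknown, and Mbp, Myrf, Ugt8a and Cldn11 are limited by their low level. The cause of each change was not tested.

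With the replicate block 1 member, Cnp, was called with CPC and with AEBDAC (adjusted p = 0.0117), against 0 and 0 without it, and the AEBDAC count was 1 with quantile normalization added to the block. The numbers did not pair AEBDAC or MTOAC with vehicle, so there the block shares only a number. The block raised the list genes called from 1 to 8, 5 to 26 and 20 to 38 and all genes called from 8 to 184, 153 to 1072 and 785 to 1904 with CPC, AEBDAC and MTOAC, and from 920 to 2110 over the 3 compounds. With quantile normalization too, the list counts were 6 for CPC and 25 for AEBDAC. With MTOAC 0 members were called after quantile normalization and with only the groups compared (adjusted p = 0.120 for Cnp), and 0 to 1 without 1 library, as over the 3 compounds.

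List genes called were 0, 2 and 11 with CPC, AEBDAC and MTOAC without the filter, and 0, 0 and 3 with only the groups compared. Without trend and robust moderation they were 0 with CPC and 3 with AEBDAC, and after quantile normalization 12 with MTOAC. Without 1 library they were 0 with CPC, 2 to 6 with AEBDAC and 7 to 15 with MTOAC.

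Quantile normalization, with or without the block, moved the median gene to -0.0011 with AEBDAC and -0.0067 with MTOAC. It turned Mbp to 0.13 with CPC, 0.085 with MTOAC and 0.020 over the 3 compounds, Tcf7l2 to 0.061 with CPC and 0.23 over the 3 compounds, and Sirt2 to 0.090 with MTOAC. Rescaling without mitochondrial genes turned Tcf7l2 to 0.024 over the 3 compounds.

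Leaving out 1 library, Mbp ranged from -0.50 to 0.38 with CPC, -0.98 to 0.086 with AEBDAC, -0.70 to 0.26 with MTOAC and -0.64 to 0.24 over the 3 compounds. Bcas1 ranged from -0.67 to 0.15, -0.62 to 0.38, -0.90 to 0.11 and -0.65 to 0.013, and Tcf7l2 from -0.27 to -0.0049, -0.11 to 0.17, -0.078 to 0.24 and -0.12 to 0.14. Sirt2 ranged from -0.0018 to 0.036 over the 3 compounds. Cnp ranged from -0.65 to -0.46, -0.58 to -0.42, -0.70 to -0.54 and -0.63 to -0.48 in the same order, from -0.027 to 0.14 between AEBDAC and CPC, and from -0.13 to 0.017 between MTOAC and CPC.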
